A study of Homo sapiens with 6 samples.

Results

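The subject is 10 blood transcription factor genes, followed through 6 RNA-seq libraries of K562 cells, 4 with shRNA against the splicing factor ZRSR2 and 2 with a control shRNA. The members were GATA1, GATA2, TAL1, KLF1, NFE2, RUNX1, MYB, LMO2, ZFPM1 and SPI1, 10 of 27285 genes with a usable read sum. All introns listed inside these genes on their strand were taken, 67 of 241593, and 5 further introns inside TAL1, RUNX1 and ZFPM1 on the opposite strand were not. K562 is an established human chronic myeloid leukaemia line with erythroid and megakaryocytic features. The groups were cells transduced with a first shRNA against ZRSR2 (ZRSR2_sh1, called sh1), cells transduced with a second one (ZRSR2_sh2, called sh2) and cells transduced with a control shRNA (Con_sh, called control). Each group held 2 libraries of polyA-selected RNA, labelled experiment 1 and experiment 2, and every value pair below is given in that order. The labels give neither the time after transduction nor whether the cells were pools or clones, and nothing in them says whether a group's libraries are separate cultures. The p-values therefore measure the spread between these libraries, which may be technical.

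These proteins set the identity of blood cells. GATA1, its cofactor ZFPM1 (FOG1), KLF1 and NFE2 switch on red cell and platelet genes, while GATA2, RUNX1, MYB and SPI1 (PU.1) act in stem and progenitor cells, and SPI1 drives myeloid and B cell fates. TAL1 binds DNA with E proteins and is joined to GATA factors through LMO2, a bridging protein that touches no DNA itself. ZRSR2 belongs to the minor spliceosome and helps to recognise the 3′ end of U12-type introns, so the comparison asks how transcripts of this factor network fared when ZRSR2 was reduced.

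Several of these genes start from more than 1 promoter, and the spliced reads described further on tell some of their first exons apart. RefSeq gave 9 promoter windows for 7 members on GRCh38.p14, and the 250 bases before the annotated start are shown for 5 of them. These bear on the first-exon reads or on the 2 erythroid genes of highest mean level per intron. Capitals mark the letters GATAA or TTATC, the core that GATA factors read, and CACCC or GGGTG, the core that KLF factors read, on either strand. The GATA core is in 20.4% and the CACCC core in 54.7% of 35116 RefSeq promoter windows of the same length, and a match is a description of letters and not evidence of binding. The windows are GATA2 distal (chr3:128493202-128493451, minus strand), GATA2 proximal (chr3:128488531-128488780, minus strand), RUNX1 proximal (chr21:34888700-34888949, minus strand), GATA1 (chrX:48786340-48786589, plus strand) and KLF1 (chr19:12887202-12887451, minus strand), each read 5′ to 3′ on the gene's strand.
GATA2 distal: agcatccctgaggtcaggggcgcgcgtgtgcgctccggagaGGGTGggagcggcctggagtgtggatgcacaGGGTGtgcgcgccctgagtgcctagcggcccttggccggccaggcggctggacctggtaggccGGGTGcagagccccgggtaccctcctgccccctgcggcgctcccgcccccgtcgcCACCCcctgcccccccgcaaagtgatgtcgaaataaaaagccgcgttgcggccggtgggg
GATA2 proximal: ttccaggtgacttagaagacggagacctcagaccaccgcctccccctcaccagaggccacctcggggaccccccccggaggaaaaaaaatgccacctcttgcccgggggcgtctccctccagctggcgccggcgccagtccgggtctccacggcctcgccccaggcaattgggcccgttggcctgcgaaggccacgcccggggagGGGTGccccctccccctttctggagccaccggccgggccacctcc
RUNX1 proximal: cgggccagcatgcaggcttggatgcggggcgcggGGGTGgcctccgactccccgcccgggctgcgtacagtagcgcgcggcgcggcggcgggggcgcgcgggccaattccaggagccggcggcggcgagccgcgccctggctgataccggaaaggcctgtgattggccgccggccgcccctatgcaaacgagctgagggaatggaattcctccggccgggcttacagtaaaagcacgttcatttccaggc
GATA1: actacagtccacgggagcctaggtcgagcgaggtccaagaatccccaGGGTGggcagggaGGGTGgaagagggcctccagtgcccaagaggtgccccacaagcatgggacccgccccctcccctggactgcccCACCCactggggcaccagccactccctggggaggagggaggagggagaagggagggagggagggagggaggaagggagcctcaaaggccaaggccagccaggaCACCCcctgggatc
KLF1: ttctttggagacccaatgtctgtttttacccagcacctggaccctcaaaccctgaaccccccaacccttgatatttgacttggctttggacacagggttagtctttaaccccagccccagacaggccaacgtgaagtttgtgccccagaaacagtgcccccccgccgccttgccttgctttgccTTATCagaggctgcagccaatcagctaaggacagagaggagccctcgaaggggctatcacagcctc
The windows of GATA1 and of the distal GATA2 start held 4 CACCC cores each and no GATA core. KLF1 held 1 GATA core and no CACCC core, and the proximal windows of GATA2 and RUNX1 held 1 CACCC core each.

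The tables hold reads at both boundaries of each intron and spliced reads, and no gene counts. Spliced reads were therefore added up for each gene from its introns, counting overlapping introns only once, which gave 76226113 and 92101965 reads in sh1, 79488300 and 80812623 in sh2 and 79310260 and 93050149 in the control. Levels below are spliced reads per 1000000 reads of these sums, written CPM. ZRSR2 itself had 10.8 and 10.7 CPM in sh1, 10.3 and 12.4 CPM in sh2, and 28.0 and 23.4 CPM in the control. All 4 knockdown libraries lay under both control libraries, at a log2 fold change of -1.21 (edgeR adjusted p = 0.573, DESeq2 adjusted p = 1.62e-06). Marker genes of the blood lineages were read as sums. The 11 erythroid genes summed to 7306 to 28620 CPM in the knockdown libraries and to 5556 and 8393 CPM in the control libraries, and these ranges overlapped. Globin genes made up most of this sum, and reads of their near-identical copies may be split or shared. The sums were 75.0 to 112 CPM in knockdown against 49.2 and 46.9 CPM in control libraries for 8 megakaryocytic genes. Most of this was ITGA2B alone, at 68.8 to 94.3 CPM in knockdown and 43.2 and 43.0 CPM in control libraries. Of the 8 genes, 3 were under 1 CPM in all libraries. The sums were 40.4 to 75.7 CPM in knockdown against 60.2 and 59.9 CPM in control libraries for 6 myeloid genes.

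All 10 members were detected in every library, and none passed edgeR's test between groups, while DESeq2 called SPI1 over both shRNAs and for sh2. Divided by the number of introns in the sum, as a rough scale across genes, GATA1 averaged 39.6 CPM per intron over the 6 libraries, with a range of 33.6 to 52.5. KLF1 followed at 21.9 (11.8 to 41.9), then NFE2 at 16.1 (10.3 to 20.3), LMO2 at 15.8 (10.1 to 22.8), MYB at 14.8 (9.44 to 19.0) and SPI1 at 13.3 (4.62 to 25.4). GATA2 stood at 10.8 (8.61 to 12.2), TAL1 at 8.71 (5.55 to 13.3), ZFPM1 at 7.23 (6.14 to 10.6) and RUNX1 at 5.85 (4.60 to 7.02). The ranges of all neighbours in this order overlapped, while the range of GATA1 lay above that of every member other than KLF1. The mean also takes in introns with few spliced reads, so the order reflects intron use as well as gene level. In LMO2 the intron at 33881888-33891794 had 1.44 to 4.98 CPM and the one at 33859576-33864601 had 16.6 to 38.0 CPM. The GATA2 intron at 128487922-128488351 had 0.31 to 0.85 CPM.

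At a Benjamini-Hochberg adjusted p of 0.05 in edgeR's quasi-likelihood test, 0 of 10 members passed over both shRNAs, and so did 0.0% of 17620 tested genes. One member, SPI1, had an unadjusted p under 0.05, as had 8.25% of the tested genes. DESeq2, run as an alternative, called 1 member, again SPI1, against 1.34% of the genes to which it gave an adjusted p. The log2 fold change was positive for 7 members and negative for 3, with a median of 0.24 against -0.01 for all tested genes. The sh1 and sh2 comparisons share the control libraries. Each of them also had 0 members past edgeR's adjusted threshold, with 0 (sh1) and 1 (sh2) at an unadjusted p under 0.05, against 6.71% and 8.33% of the tested genes. DESeq2 called 0 members for sh1 and 1 for sh2, against 0.781% and 1.27% of genes. Between sh1 and sh2 edgeR called 0 members, with 0 at an unadjusted p under 0.05 (against 5.36% of genes), and DESeq2 called 0 (against 0.416%).

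**Figure D1:**
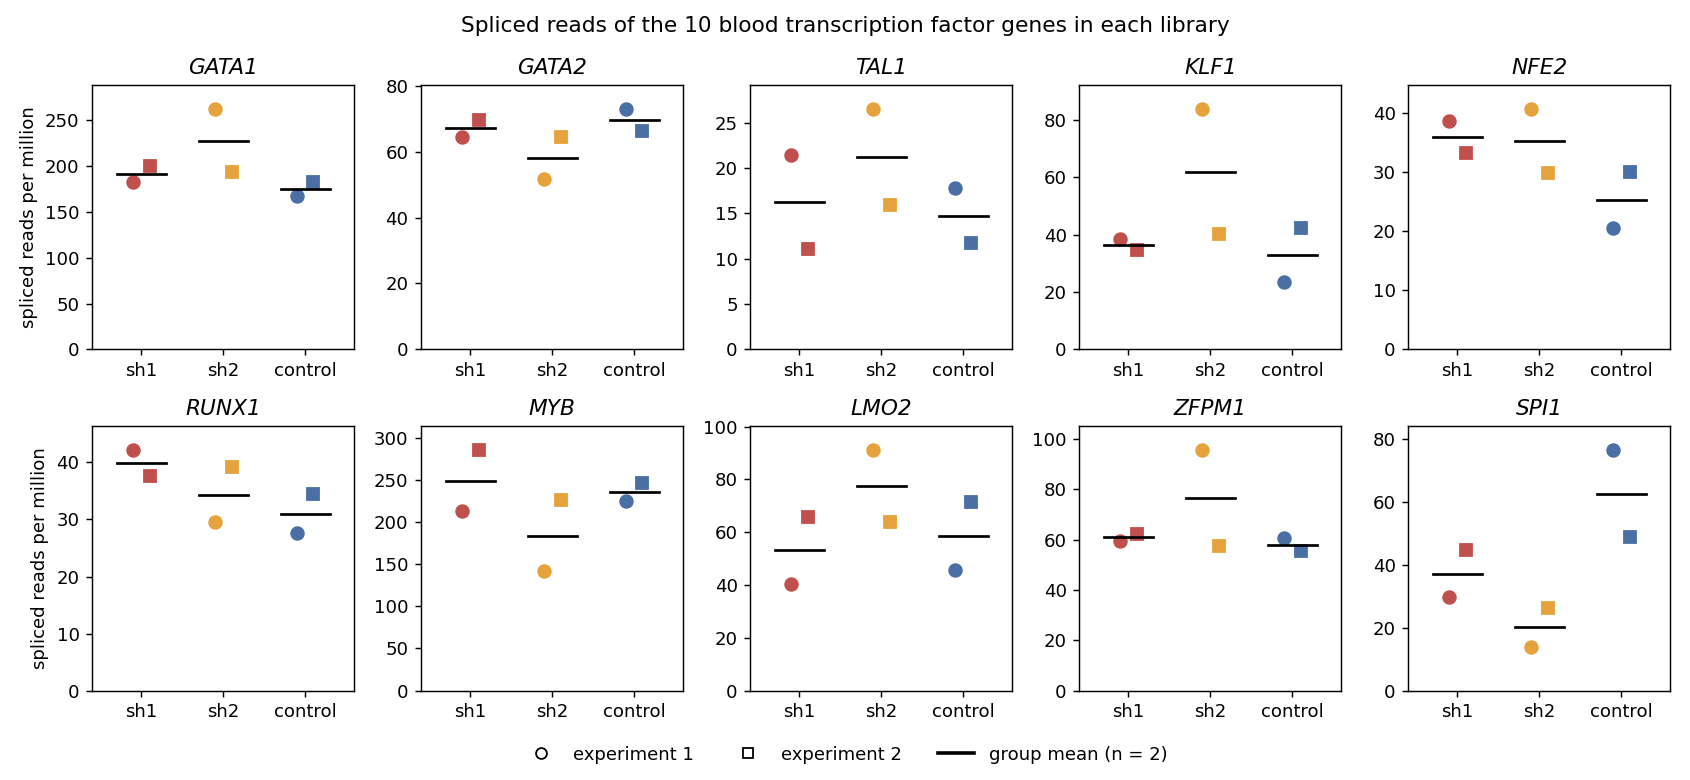
Level in CPM (linear axis from 0) of the 10 genes in each library, with sh1, sh2 and control libraries from left to right, circles for experiment 1, squares for experiment 2 and bars for the mean of 2 libraries. The 4 SPI1 knockdown libraries (13.9 to 44.5 CPM) lie below both control libraries (76.3 and 48.8 CPM), the highest of them by little, and the sh2 library of experiment 1 is at an extreme for 9 of the 10 genes.

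GATA1, the master factor of red cell and megakaryocyte maturation, had 183 and 200.1 CPM in sh1, 262 and 193 CPM in sh2, and 168 and 183 CPM in the control. All knockdown libraries lay above both control libraries, but 1 of them did so by less than the digits shown, and 9.69% of tested genes had the same order. The log2 fold change was 0.25 (95% interval -0.12 to 0.62, edgeR adjusted p = 0.671). ZFPM1, the zinc finger cofactor that GATA1 needs at many of its genes, had 59.4 and 62.3 CPM in sh1, 95.5 and 57.3 CPM in sh2, and 60.8 and 55.3 CPM in the control. The groups overlapped, and 1 sh2 library stood well above the other 5 (log2 fold change 0.23, 95% interval -0.26 to 0.72, edgeR adjusted p = 0.780).

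KLF1, which activates globin and other red cell genes, had 38.4 and 34.5 CPM in sh1, 83.8 and 40.1 CPM in sh2, and 23.5 and 42.4 CPM in the control. The knockdown and control libraries overlapped, and the control libraries themselves lay wide apart. The log2 fold change over both shRNAs was 0.52 (95% interval -0.30 to 1.35, edgeR adjusted p = 0.694). It was 0.13 for sh1 (95% interval -0.80 to 1.06, edgeR adjusted p = 0.966) and 0.92 for sh2 (95% interval -0.02 to 1.85, edgeR adjusted p = 0.593), and the sh1 and sh2 libraries did not differ past the threshold (edgeR adjusted p = 0.912, DESeq2 adjusted p = 0.726). Without the sh2 library of experiment 2, which left 1 sh2 library, DESeq2 gave a log2 difference of -1.19. For sh2 against the control DESeq2 gave log2 0.90 and adjusted p = 0.318 with all libraries. With 1 library left in a group, this log2 value was 1.40 without the control library of experiment 2 and 1.32 without the sh2 library of experiment 2. It was 0.52 without the control library of experiment 1 and 0.31 without the sh2 library of experiment 1. NFE2, the larger subunit of a factor that drives platelet and globin genes, had 38.6 and 33.2 CPM in sh1, 40.6 and 29.9 CPM in sh2, and 20.6 and 30.0 CPM in the control. One knockdown library lay just under the higher control library and the other 3 lay above both. The log2 fold change was 0.49 for each shRNA and 0.49 over both (95% interval -0.03 to 1.01, edgeR adjusted p = 0.603, DESeq2 adjusted p = 0.398).

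TAL1, the helix-loop-helix factor of the complex, had 21.5 and 11.1 CPM in sh1, 26.5 and 15.9 CPM in sh2, and 17.7 and 11.8 CPM in the control. Experiment 1 exceeded experiment 2 in each of the 3 groups, and the groups overlapped (log2 fold change 0.33, 95% interval -0.48 to 1.15, edgeR adjusted p = 0.806). LMO2, its bridging partner, had 40.5 and 65.9 CPM in sh1, 91.1 and 63.8 CPM in sh2, and 45.6 and 71.6 CPM in the control. The sh1 and control libraries spanned much the same range, with 1 sh2 library above both (log2 fold change 0.13, 95% interval -0.55 to 0.81, edgeR adjusted p = 0.919).

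GATA2, the progenitor counterpart of GATA1, had 64.5 and 69.6 CPM in sh1, 51.7 and 64.4 CPM in sh2, and 72.9 and 66.2 CPM in the control. It varied least of the 10 members, with its highest library 1.41 times its lowest (log2 fold change -0.15, 95% interval -0.52 to 0.21, edgeR adjusted p = 0.802). MYB, a factor of dividing progenitors, had 213 and 285 CPM in sh1, 142 and 226 CPM in sh2, and 224 and 246 CPM in the control. The sh1 libraries lay on both sides of the control, and 1 sh2 library lay below all others (log2 fold change -0.13, 95% interval -0.68 to 0.42, edgeR adjusted p = 0.892). RUNX1, the Runt factor that founds definitive blood formation, had 42.1 and 37.7 CPM in sh1, 29.5 and 39.2 CPM in sh2, and 27.6 and 34.5 CPM in the control. Only the sh2 library of experiment 1 kept the groups from separating (log2 fold change 0.26, 95% interval -0.20 to 0.71, edgeR adjusted p = 0.734).

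That sh2 library of experiment 1 was the highest of the 6 libraries for 6 members (GATA1, TAL1, KLF1, NFE2, LMO2 and ZFPM1) and the lowest for 3 (GATA2, MYB and SPI1). It also had the highest erythroid marker sum, 28620 CPM, and the part of this in the members' values was not tested. Without it, the log2 fold change over both shRNAs was 0.15 for GATA1, 0.14 for TAL1, 0.23 for KLF1, 0.39 for NFE2, 0.01 for LMO2, 0.04 for ZFPM1, -0.07 for GATA2, 0.03 for MYB and -0.98 for SPI1.

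**Figure D2:**
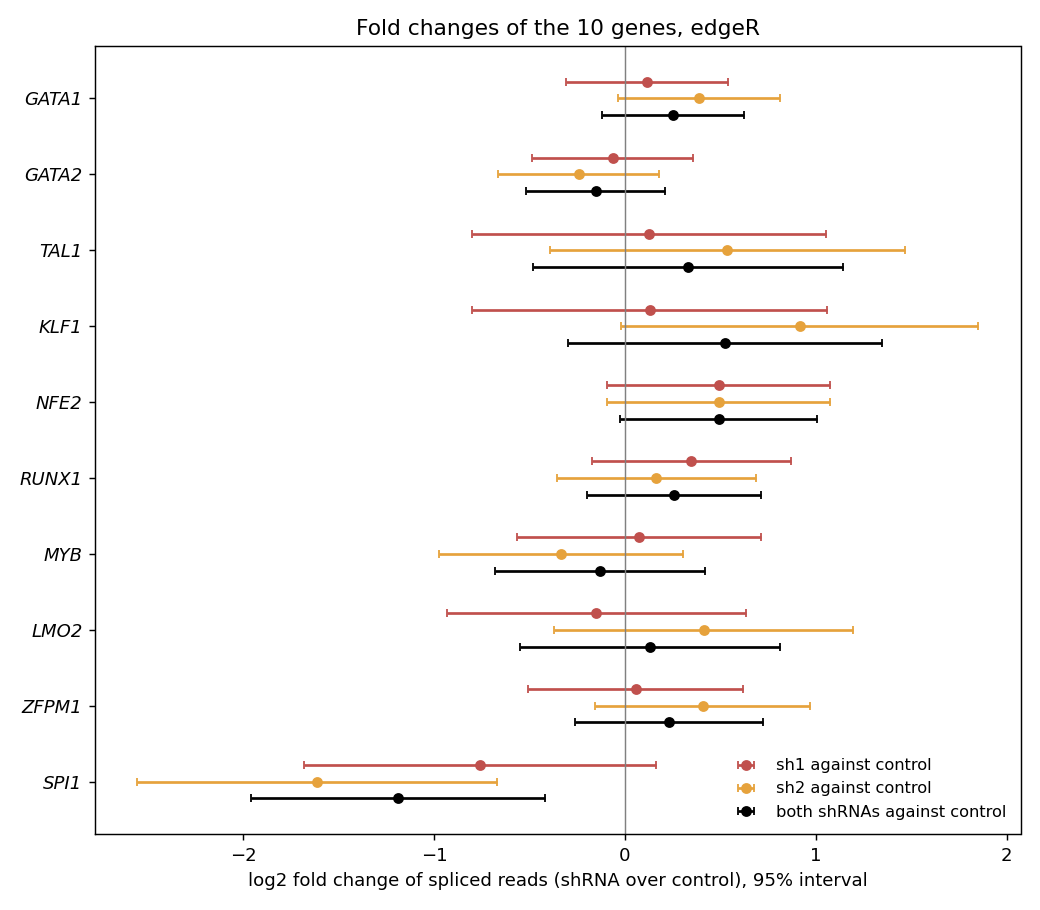
Log2 fold change of spliced reads over the control for sh1, sh2 and both shRNAs together, with 95% intervals from edgeR, for each of the 10 genes. The interval for SPI1 over both shRNAs runs from -1.96 to -0.42 and lies wholly below 0, while the intervals of the other 9 genes over both shRNAs include 0.

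SPI1, the ETS factor that opposes GATA1, was the member with the widest spread: its highest library had 5.51 times the level of its lowest. It had 29.7 and 44.5 CPM in sh1, 13.9 and 26.3 CPM in sh2, and 76.3 and 48.8 CPM in the control. All 4 knockdown libraries lay below both control libraries, as they did for 9.81% of the tested genes. Within experiment 1 the knockdown libraries had 29.7 and 13.9 CPM against 76.3 CPM in the control, and within experiment 2 they had 44.5 and 26.3 CPM against 48.8 CPM.

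The log2 fold change of SPI1 was -1.19 over both shRNAs (95% interval -1.96 to -0.42, fold 0.439, edgeR adjusted p = 0.573, DESeq2 adjusted p = 0.0471). It was -0.76 for sh1 (95% interval -1.68 to 0.16, edgeR adjusted p = 0.745, DESeq2 adjusted p = 0.581) and -1.61 for sh2 (95% interval -2.55 to -0.67, edgeR adjusted p = 0.574, DESeq2 adjusted p = 0.0105). The difference between sh1 and sh2 had an edgeR adjusted p of 0.906 and a DESeq2 adjusted p of 0.596. Without the sh2 library of experiment 2, which left 1 sh2 library, DESeq2's log2 difference was 1.44 in place of 0.86. The fits below with a library left out likewise had 1 library in that group. DESeq2's call over both shRNAs was lost without the sh1 library of experiment 1 (adjusted p = 0.353), without the sh2 library of experiment 1 (adjusted p = 0.0913) and without the control library of experiment 1 (adjusted p = 0.922). The sh2 call was lost in DESeq2 without the sh2 library of experiment 1 (adjusted p = 0.257) and without the control library of experiment 1 (adjusted p = 0.360). With the experiment number as a block, DESeq2 gave adjusted p = 0.00177 over both shRNAs and edgeR gave adjusted p = 0.286. In the blocked DESeq2 fit sh2 had log2 -1.72 (adjusted p = 0.000116) and sh1 had log2 -0.83 (adjusted p = 0.183). With the block edgeR called 0 genes for sh1 and 0 for sh2.

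Each of the 3 SPI1 introns in the sum carried the same order. They make up that sum in the same libraries, so they are not separate evidence for it. Spliced reads in knockdown over control libraries stood at a ratio of 0.441 for the intron at 47375733-47378308 on chromosome 11, of 0.464 for the one at 47360041-47375632 and of 0.472 for the one at 47359007-47359852. Bulk RNA cannot tell fewer SPI1-expressing cells from less SPI1 RNA per cell. The summed level of 5 lymphoid marker genes differed in the same direction: it was 31.0 to 36.1 CPM in the knockdown libraries and 87.5 and 42.4 CPM in the control libraries. All 4 of these markers that were tested had negative fold changes, CD3D made up 69.2 CPM of the higher control sum, and none of the 5 was at 0 in every library. Over both shRNAs the log2 fold change of CD3E was -1.63 (DESeq2 adjusted p = 0.0264, edgeR adjusted p = 0.573), a DESeq2 call that held in 3 of 6 fits with 1 library left out. Their part in the SPI1 values was not tested.

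None of the 67 member introns passed the test for a change in retention. Retention is the share of boundary reads, 100 times the reads over both exon-intron boundaries divided by these reads plus 2 times the spliced reads. All 67 introns had at least 20 reads per library on average and were tested with edgeR, and 0 passed over both shRNAs, for sh1, for sh2 or between sh1 and sh2. Among all 134078 tested introns, 0.351%, 0.302%, 0.286% and 0.0343% passed in these 4 comparisons. With the experiment number as a block, 594 in place of 384 introns passed for sh2 and 116 in place of 46 between the shRNAs, and again no member intron was among them. An unadjusted p under 0.05 over both shRNAs was found for 3 member introns (4.48%, against 4.44% of all tested introns), for 5 with sh1 (against 4.09%), for 0 with sh2 (against 4.5%) and for 4 between sh1 and sh2 (against 3.83%). The log2 change of boundary against spliced reads was positive for 51 member introns and negative for 16, with a median of 0.16 against 0.08 for all tested introns. Member introns that overlap share reads, so these are not 67 separate signs. In 7 introns all knockdown libraries lay above both control libraries and in 1 they lay below, against 7.28% and 4.11% of all tested introns.

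**Figure D3:**
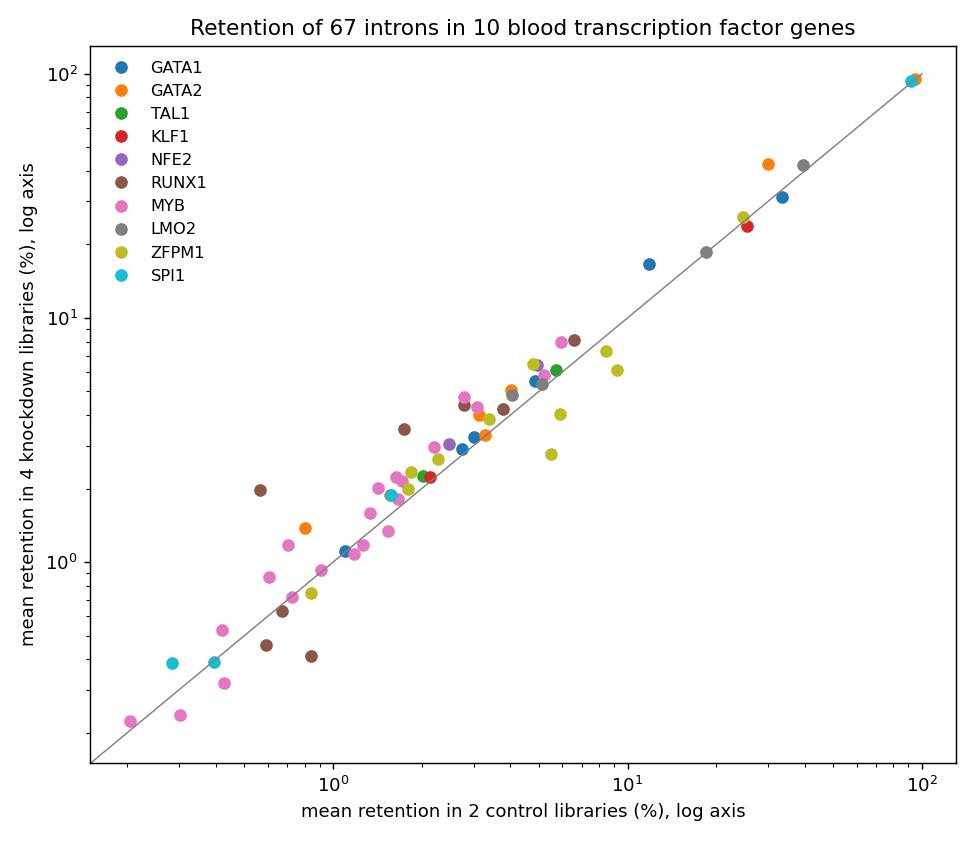
Mean retention of the 67 introns in the 4 knockdown libraries against the mean in the 2 control libraries, both on log axes, with 1 colour per gene and a line of equal retention. The introns lie along the line over the whole range, and the points furthest above it are RUNX1 introns with retention between 0.5% and 4% and few boundary reads.

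A few member introns were partly retained in all groups. Over the 6 libraries 9 of the 67 introns (13.4%) averaged at least 10%, as did 12.4% of all tested introns, and 7 (10.4%) averaged at least 20%, as did 6.64% of all tested introns. The 9 include outer introns that span other listed ones: GATA1 48786646-48791843, GATA2 128487077-128492898, ZFPM1 88486044-88514386 and SPI1 47355547-47378308. Each shares boundary reads with an intron inside it and has fewer spliced reads. Its percentage is therefore not a measure of how much of that stretch stayed unspliced. Such introns were left out of neither share. The median over introns was lowest in SPI1, at 1.09% for 4 introns, and next lowest in MYB, at 1.41% for 21 introns, of which 12 also lie inside another annotated gene. Apart from the longest one, the introns of SPI1 were spliced nearly fully, at 0.352% to 1.79%.

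The last intron of GATA1 (chromosome X, 48793298-48793792, 495 nt) was retained at 35.2% and 22.1% in sh1, 37.8% and 30.4% in sh2, and 40.0% and 27.1% in the control. Experiment 1 was higher than experiment 2 in every group, and the groups overlapped. Reads crossed both of its boundaries in number, 9539 at the 5′ side and 6570 at the 3′ side over all libraries, and every library covered the intron fully. The log2 change was -0.15 (SE 0.31, edgeR adjusted p = 1). The other GATA1 introns of the full-length transcript averaged 1.11% to 5.29%.

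KLF1 has 2 introns, and the first (chromosome 19, 12886143-12887053, 911 nt) was retained at 24.7% and 22.7% in sh1, 22.6% and 25.4% in sh2, and 26.6% and 24.5% in the control. The 6 libraries lay close together and the groups overlapped (log2 change -0.13, SE 0.33, edgeR adjusted p = 1). Its 3′ boundary carried 4869 reads and its 5′ boundary 1263. The first intron of LMO2 (chromosome 11, 33881888-33891794) was retained at 41.0% and 27.6% in sh1, 57.1% and 43.9% in sh2, and 41.4% and 37.6% in the control. Here too the 3′ side led, with 2112 reads against 355, and the mean covered fraction of the intron was 0.748. In retention both sh2 libraries lay above both sh1 libraries (unadjusted p = 0.0280, edgeR adjusted p = 1). The intron had 1.44 to 4.98 CPM of spliced reads, against 16.6 to 38.0 CPM for the LMO2 intron at 33859576-33864601. Its percentage is therefore not a share of all LMO2 transcripts, and the source of its 3′ reads was not tested.

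The second intron of LMO2 (33869988-33881823) was steadier, at 21.0% and 19.2% in sh1, 16.5% and 17.6% in sh2, and 19.8% and 17.2% in the control, with 1123 reads at the 5′ and 784 at the 3′ boundary. The ZFPM1 intron at 88486044-88514386 on chromosome 16, which spans a skipped exon, had 24.6% and 26.3% in sh1, 23.1% and 30.1% in sh2, and 19.0% and 30.4% in the control. Both overlapped between the groups. The longest SPI1 intron (47355547-47378308, 22762 nt), which spans the other 3, had 97.0% and 96.0% in sh1, 90.3% and 90.2% in sh2, and 93.2% and 90.8% in the control. It had 2 to 9 spliced reads per library, 3 reads at its 5′ boundary and 805 at its 3′ boundary over all libraries, so its percentage describes reads across that one 3′ position in the last part of the gene. In NFE2 the intron at 54293382-54295134 on chromosome 12 had 7.20% and 4.51% in sh1, 8.24% and 5.63% in sh2, and 5.25% and 4.60% in the control. In TAL1 the intron at 47224099-47225442 on chromosome 1 had 6.42% and 5.16% in sh1, 6.12% and 6.69% in sh2, and 6.52% and 4.91% in the control. In both genes experiment 1 was mostly the higher one and the groups overlapped.

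**Figure D4:**
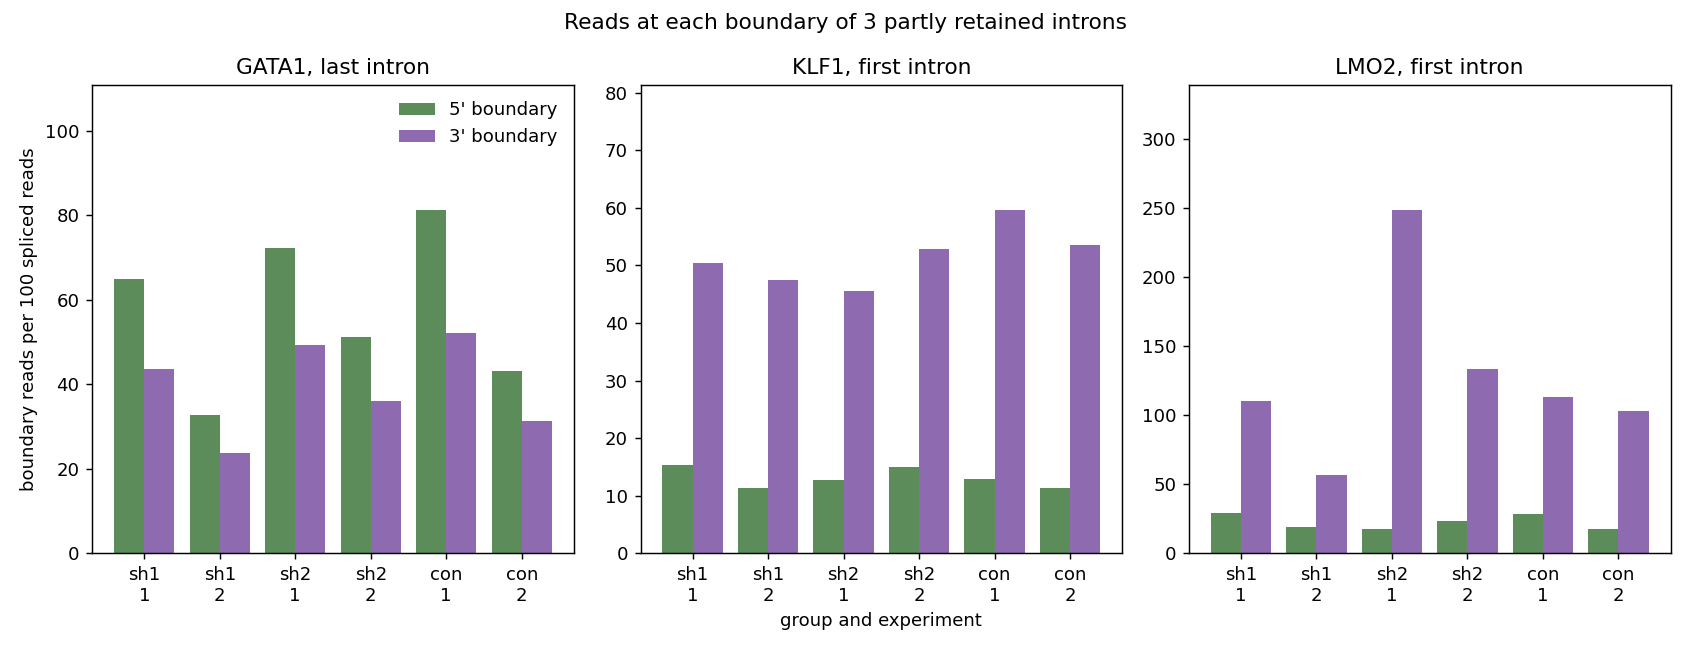
Reads at the 5′ and 3′ boundary per 100 spliced reads for the last intron of GATA1 and the first introns of KLF1 and LMO2, with sh1, sh2 and control libraries from left to right and the experiment number under each. In GATA1 both boundaries are read and the 5′ side leads, while in KLF1 and LMO2 the 3′ side leads in every library, most of all in the sh2 library of experiment 1 for LMO2.

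Over both shRNAs, the 3 member introns of lowest p were in ZFPM1 and RUNX1. The ZFPM1 intron at 88532936-88533147 on chromosome 16 was retained at 3.23% and 1.94% in sh1, 3.34% and 2.61% in sh2, and 6.61% and 4.40% in the control. It was the 1 intron with all knockdown libraries below the control, at a log2 change of -1.02 (SE 0.45, unadjusted p = 0.0239, edgeR adjusted p = 0.962). It rested on 78 reads at the 5′ boundary and 159 at the 3′ boundary over all libraries. The RUNX1 intron behind the distal first exon (chromosome 21, 34892964-35048841, 155878 nt) was retained at 3.55% and 0.909% in sh1, 1.63% and 1.79% in sh2, and 0.781% and 0.346% in the control. The order was complete but the reads were few, 27 and 13 at the boundaries over all libraries, with a mean covered fraction of 0.190 (log2 change 1.90, SE 0.90, unadjusted p = 0.0351, edgeR adjusted p = 1). A second RUNX1 intron, at 34799463-34834409, averaged 3.50% in knockdown and 1.74% in control libraries (unadjusted p = 0.0498, edgeR adjusted p = 1).

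For sh1 alone and between the shRNAs, the member intron of lowest p was in GATA2 (chromosome 3, 128486369-128486802), named after its values were seen. It was retained at 2.66% and 1.44% in sh1, 0.444% and 0.975% in sh2, and 0.590% and 1.01% in the control. Both sh1 libraries lay above the other 4. The log2 change was 1.32 for sh1 (SE 0.54, unadjusted p = 0.0136, edgeR adjusted p = 0.972), and the log2 difference between sh1 and sh2 was 1.49 (SE 0.56, unadjusted p = 0.00770, edgeR adjusted p = 1). It rested on 42 reads at the 5′ boundary and 80 at the 3′ boundary over all libraries.

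The lowest p among MYB introns belonged to its last listed one (chromosome 6, 135203949-135217860), with 7.74% and 3.27% in sh1, 4.54% and 3.50% in sh2, and 2.76% and 2.79% in the control. All knockdown libraries lay above the control, 1 of them far above (log2 change 0.72, SE 0.37, unadjusted p = 0.0533, edgeR adjusted p = 1). Without the sh1 library of experiment 1 the log2 change was 0.39. In the remaining members the lowest unadjusted p over both shRNAs was 0.134 for GATA1, 0.220 for GATA2, 0.302 for NFE2, 0.377 for SPI1, 0.447 for LMO2, 0.685 for KLF1 and 0.738 for TAL1.

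Exons that are left out of part of the transcripts were read from introns that span them. The spliced count of an intron holds every read whose gap spans it, so inclusion was taken as the mean of the 2 inner introns minus the outer one. The comparison was added after the intron values had been seen and was run over all 7161 such events, of which 7 lay in members. None of the 7 passed with edgeR, and 0.014% of all events did. One of the 7 had an unadjusted p under 0.05, against 5.61% of all events. With the experiment number as a block 14 events passed in place of 1, none of them in a member.

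The GATA1 exon at 48791091-48791329 (239 nt) holds the first start codon, and leaving it out is known to give GATA1s, the short form that lacks the amino-terminal part. It was skipped in 14.7% and 14.6% of reads in sh1, 12.3% and 15.6% in sh2, and 18.1% and 17.6% in the control. All 4 knockdown libraries lay below both control libraries, as they did in 8.87% of all events. The log2 change of skipping against inclusion was -0.39 (SE 0.14, 95% interval -0.71 to -0.07, unadjusted p = 0.0245, edgeR adjusted p = 0.884). The skipping junction itself (48786646-48791843) had 473 and 612 reads in sh1, 610 and 578 in sh2, and 587 and 693 in the control. Its retention, which counts the same boundaries against these skipping reads, was 14.8% to 19.4% in knockdown and 12.7% and 11.0% in control libraries (edgeR adjusted p = 1).

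MYB, known for its many alternative exons, had 4 events. Its exon of 72 nt was left out of 48.6% and 47.0% of reads in sh1, 50.4% and 48.2% in sh2, and 48.2% and 47.3% in the control. The 363-nt exon was skipped in 85.8% to 87.9% of reads in knockdown and 88.9% and 87.2% in control libraries, and the 111-nt exon in 19.5% to 21.6% of reads in knockdown and 21.5% and 19.3% in control libraries. The groups overlapped in these 3. The 260-nt exon was skipped in 90.5% to 92.4% of knockdown reads against 93.1% and 92.6% of control reads, without overlap (log2 change -0.35, SE 0.16, unadjusted p = 0.0656, edgeR adjusted p = 0.905). The RUNX1 exon of 192 nt was skipped in 20.6% and 16.0% of reads in sh1, 13.4% and 15.8% in sh2, and 17.4% and 15.1% in the control, with overlap. The ZFPM1 exon of 123 nt was skipped in 9.19% and 9.33% of reads in sh1, 10.4% and 10.2% in sh2, and 8.77% and 8.39% in the control, a complete order that 4.38% of events shared (log2 change 0.21, SE 0.19, edgeR adjusted p = 0.965).

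**Figure D5:**
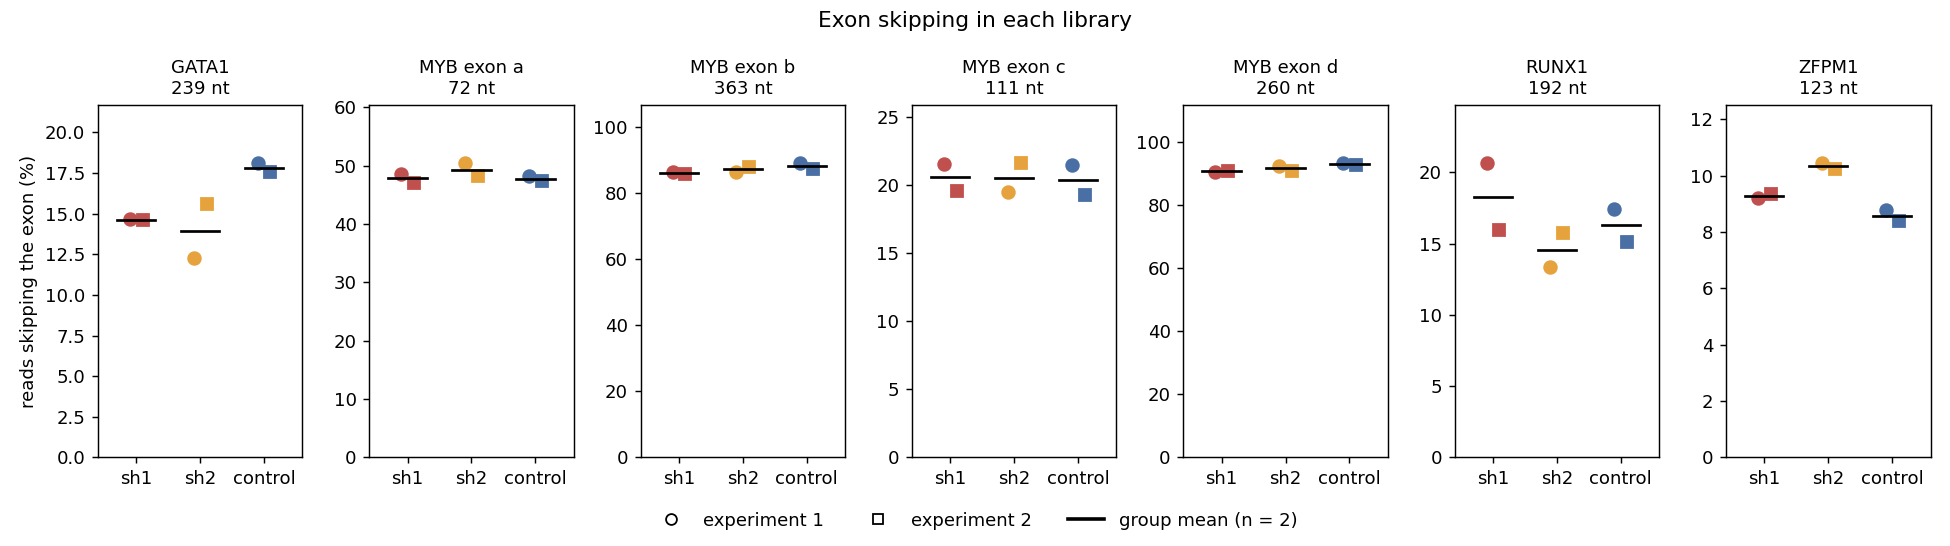
Percent of reads that skip each of 7 exons of GATA1, MYB, RUNX1 and ZFPM1, with the exon's length above each panel, sh1, sh2 and control libraries from left to right, circles for experiment 1, squares for experiment 2 and bars for the mean of 2 libraries. The GATA1 exon is skipped less in all 4 knockdown libraries (12.3% to 15.6%) than in both control libraries (18.1% and 17.6%), and the MYB exons keep nearly constant levels.

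First exons were compared in RUNX1 and GATA2, also after the values had been seen. RUNX1 makes a distal and a proximal transcript class, and the distal first intron lies wholly upstream of the proximal start shown above, so its reads come from the distal class. Per 100 reads of the next listed intron (34880714-34886842), the distal intron had 36.5 and 38.9 reads in sh1, 47.3 and 53.2 in sh2, and 32.6 and 56.7 in the control. The 2 control libraries lay below and above all 4 knockdown libraries (exact permutation p = 1, two-sided). In GATA2 both listed introns that reach further upstream than the first shared intron carried few spliced reads. The intron from the distal exon (128487077-128492898) had 1 to 6 spliced reads per library, against 1037 to 1592 for the intron (128487077-128487710) that ends at the same place. The distal intron's retention of 91.2% to 98.6% therefore rests on very few spliced reads. The intron just behind the proximal RefSeq start (128487922-128488351) had 25 to 79 spliced reads per library. That was 2.81 and 3.77 reads per 100 of the next intron in sh1, 2.41 and 3.26 in sh2, and 3.92 and 5.11 in the control. The knockdown libraries were lower without overlap, and the exact permutation p of 0.0667 (two-sided) is the smallest that 4 against 2 libraries allow. Its retention was 46.7% and 34.1% in sh1, 49.0% and 41.8% in sh2, and 36.2% and 23.7% in the control (log2 change 0.82, SE 0.67, edgeR adjusted p = 1).

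The genes around these factors gave few calls in spliced reads. Of 40 further blood transcription factors and partners, 32 were tested, 0 passed with edgeR or DESeq2 over both shRNAs, and 23 had positive and 9 negative log2 fold changes, with a median of 0.18 against -0.01 for all tested genes. The 3 with the lowest p were BACH1 (log2 fold change 0.57, edgeR adjusted p = 0.573), a repressor of globin and haem genes, SSBP2 (0.33, edgeR adjusted p = 0.573), which stabilises the LDB1 complex, and LMO4 (0.47, edgeR adjusted p = 0.602), a relative of LMO2. All 3 were higher in every knockdown library than in either control library, an order that 9.69% of tested genes shared. These 3 of the 32 had an unadjusted p under 0.05 in edgeR, as had 8.25% of the tested genes. Of 14 corepressors and coactivators, 0 passed with either tool, with 8 positive and 6 negative log2 fold changes, a median of 0.01 and 0 at an unadjusted p under 0.05.

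Of 24 known targets of these factors 20 were tested and 0 passed with edgeR. There were 14 positive and 6 negative log2 fold changes, with a median of 0.99. An unadjusted p under 0.05 was found for 5, against 8.25% of the tested genes. The near-identical globin copies named below each count in these numbers, so the targets are not 20 separate measures. The summed level of the targets was 28810 CPM in the sh2 library of experiment 1 and 5854 to 15730 CPM in the other libraries. DESeq2 called ITGA2B higher. ITGA2B, the platelet integrin chain that GATA1 and RUNX1 activate, had 94.3 and 80.6 CPM in sh1, 80.6 and 68.8 CPM in sh2, and 43.2 and 43.0 CPM in the control. The groups stood clearly apart (log2 fold change 0.91, edgeR adjusted p = 0.573, DESeq2 adjusted p = 1.14e-05), and DESeq2 called it without any 1 library. Among the megakaryocytic markers DESeq2 also called VWF, the platelet adhesion protein, which had 3.98 and 1.65 CPM in sh1, 12.0 and 2.44 CPM in sh2, and 0.643 and 0.193 CPM in the control (log2 fold change 3.43, DESeq2 adjusted p = 0.00118, edgeR adjusted p = 0.573). All knockdown libraries lay above the control at low levels. Reads of HBA1 and HBA2 and of HBG1 and HBG2 may be split or shared between the copies, and their sums are uncertain.

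Over both shRNAs, edgeR called 0 of 246 tested introns of the further factors, 2 of 255 of the corepressors and coactivators and 5 of 201 of the targets, of which 2 were more and 3 less retained. Of all tested introns 0.351% were called, and 0 of 67 in the members. CHD4, the remodelling subunit of the NuRD complex that ZFPM1 recruits, had 2 introns with more retention. The one at 6577918-6578028 on chromosome 12 was retained at 17.7% and 6.13% in sh1, 12.8% and 5.63% in sh2, and 1.49% and 1.27% in the control. Every knockdown library was far above the control (log2 change 2.92, edgeR adjusted p = 7.06e-13), and the call held without any 1 library. The CHD4 intron at 6573270-6577784 had 2.17% to 5.87% in knockdown and 0.941% and 1.09% in control libraries (log2 change 1.91, edgeR adjusted p = 0.000232, and 0.0900 without the control library of experiment 1).

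Less retention was called for 1 intron of TUBB1, the platelet tubulin (log2 change -2.62, edgeR adjusted p = 0.0364), and this call held in 2 of 6 fits with 1 library left out. An intron of GFI1B, a partner of GATA1, passed for sh2 alone: it had 53.9% and 61.1% in sh1, 89.5% and 89.1% in sh2, and 41.2% and 23.4% in the control (edgeR adjusted p = 0.0461 for sh2 and 1 for sh1). Its difference between sh1 and sh2 had an edgeR adjusted p of 1, and the sh2 call held in 3 of 6 such fits.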

How the data were processed

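RNA-seq of 6 K562 libraries, 2 per group, was used as intron tables, with the hg19 build named in the submitters' processing notes. The positions matched genes of the RefSeq GRCh38 table, which supplied gene names and strand, so coordinates are given as GRCh38. Per the file headers, the deposited values are read counts at each intron boundary and of spliced reads, the covered fraction of the intron, and a retention level in percent. Retention recomputed from the deposited counts differed by at most 2.8e-14. The aligner is not given in the sources used here, and whether counting used strand is not stated.

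Spliced counts were summed per gene over non-overlapping introns, after leaving out 2418 introns that repeated a neighbour's reads, none in a member. Gene sums (17620 genes) were tested with edgeR 4.0.16 (TMM, quasi-likelihood, 3 residual degrees of freedom) and DESeq2 1.42.0, in R 4.3.3. Introns with a mean of at least 20 reads (134078) were tested with edgeR on boundary against spliced counts with a term per library, and 7161 exon-skipping events likewise. Adjusted p-values of edgeR are Benjamini-Hochberg over all features tested. Those of DESeq2 are over the genes left after its own filter, 13520 over both shRNAs and 14204 for sh2. The DESeq2 calls of SPI1 therefore depend on that filter as well. Whether either tool can detect differences as small as those of the members in these libraries was not tested. Over both shRNAs edgeR called 0 of 17620 genes, and ZRSR2 itself had an edgeR adjusted p of 0.573. Experiment numbers in the labels pair the samples: deviations of same-numbered libraries from their group means correlated at 0.441 (sh1 and sh2), 0.279 (sh1 and control) and 0.305 (sh2 and control) over 17620 genes, each above 0.1. The fit without this block is reported, with the block beside it for some calls and counts. The block also raised the introns called from 471 to 666 over both shRNAs and from 405 to 567 for sh1. Exon-skipping events called rose from 2 to 11 for sh1 and from 0 to 3 for sh2.

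Member genes and gene lists were chosen with earlier results of these data known. The text names all members, the introns of highest retention or lowest p, and list genes and introns past a threshold or of lowest p. First-exon use, exon skipping and the handling of nested repeats were chosen after values were seen. CEBPA, CEBPB, MAFG, BCL2L1, BCL2 and ELANE are not analysed here, and some results for genes of the lists are not reported here. Promoter windows are from RefSeq, and NFE2, LMO2 and SPI1 have none here. Intervals and tests cover the spread between these libraries.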

Additional observations from a re-analysis of the deposited data

Results flagged for a closer look

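The retention of the long SPI1 intron at 47355547-47378308 moved in opposite directions with the 2 shRNAs. It was 97.0% and 96.0% in sh1, both above the control values of 93.2% and 90.8%, and 90.3% and 90.2% in sh2, both below them. The log2 difference between sh1 and sh2 was 1.55 (SE 1.18, unadjusted p = 0.192, edgeR adjusted p = 1), so it did not pass the test. Each value rests on 2 to 9 spliced reads.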

How the results depend on the processing

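Of the alternatives run, none brought a member gene, a member intron or a member exon past edgeR's adjusted threshold. With the experiment number as a replicate block (paired fit), the introns called over all genes were 666 over both shRNAs, 567 for sh1, 594 for sh2 and 116 between the shRNAs. With the smaller boundary count doubled, 79, 65, 39 and 0 introns were called over both shRNAs, for sh1, for sh2 and between the shRNAs. With a covered fraction of at least 0.95 these were 212, 161, 48 and 0, and a minimum of 50 reads gave 10 between the shRNAs. DESeq2 called 181, 127, 180 and 69 genes in the same 4 comparisons, where edgeR called 0. Leaving out 1 library gave 269 to 589, 133 to 502, 120 to 435 and 24 to 49 introns, and 0 to 3, 0 to 1, 0 to 9 and 0 to 9 genes by edgeR.

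The log2 changes that turned sign under an alternative did not pass the threshold before or after, and the cause was not tested. With the smaller boundary count doubled, retention over both shRNAs became 0.16 for KLF1 12886143, -0.0105 for LMO2 33881888, -1.25 for SPI1 47375733 and -1.06 for TAL1 47224099. NFE2 between sh1 and sh2 became 0.0154 with DESeq2, 0.0257 with no TMM, 0.000104 with no filter, 0.0114 over all introns, 0.0123 with the median intron and 1.31e-05 with the block. Leaving out 1 library in turn spanned, for introns over both shRNAs, -0.0555 to 0.38 for LMO2 33881888, -0.22 to 0.40 for TAL1 47220175, -0.57 to 0.27 for GATA1 48793298, -0.71 to 0.87 for GATA2 128487077, -0.0801 to 0.74 for SPI1 47375733, -0.32 to 0.58 for ZFPM1 88486044 and -0.11 to 0.33 for TAL1 47224099. For genes it spanned -0.16 to 0.51 for LMO2 and -0.33 to 0.0277 for MYB over both shRNAs. With sh1 it spanned -0.14 to 0.0109 for GATA2, -0.40 to 0.51 for TAL1, -0.57 to 0.23 for LMO2, -0.17 to 0.28 for MYB and -0.23 to 0.64 for KLF1. It spanned -0.0881 to 0.38 for RUNX1 with sh2, and -0.17 to 0.21 for NFE2, -0.0310 to 0.45 for RUNX1 and -0.64 to 0.0325 for ZFPM1 between sh1 and sh2. Exon skipping spanned -0.11 to 0.13 for RUNX1 and -0.0778 to 0.11 for the 111-nt MYB exon. Few boundary reads limit the RUNX1 introns, and few spliced reads the longest introns of GATA2 and SPI1.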
